A study of Homo sapiens with 18 samples.

Results

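The arrays described here are 6 of the 18 of the series, picked by their titles. Of these, 3 held RNA from MCF10A cells titled shLATS1+2 with a control cDNA, and 3 held RNA from MCF10A cells titled shNT with the same control cDNA. The design text calls the first a double knockdown of LATS1 and LATS2, and the second carries a hairpin with no target. MCF10A is an immortal, non-tumour line of human breast epithelium. In both groups a pLKO lentivirus brought in the hairpin at a multiplicity of infection of 5, puromycin at 1.5 µg/ml selected infected cells over 4 days, and a recovery of no less than 7 days followed. A control cDNA plasmid was then put in by Lipofectamine, and RNA was taken 5 days later from cells in M5 medium, which contains estrogen. The hairpin sequences were not used here. A further 3 arrays of cells with a hairpin to LATS1 alone and the control cDNA (shLATS1B) were set beside them, and 9 shNT arrays with YAP/TAZ cDNA, ESR1 cDNA or both were read as levels.

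LATS1 and LATS2 are the kinases at the end of the Hippo cascade, in which the MST kinases with SAV1, and the MAP4K kinases, activate them together with the MOB1 adaptors. Active LATS kinases phosphorylate YAP, the product of YAP1, and TAZ, the product of WWTR1, which keeps both in the cytoplasm or marks them for breakdown. When LATS activity is low, YAP and TAZ enter the nucleus, bind TEAD factors and switch on genes of growth and adhesion such as CCN1 and CCN2. In breast epithelium the pathway is known for its part in the balance between basal and luminal cell states.

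All values are the authors' log2 signals per probe set. A level compares the same probe set between arrays and never 1 gene with another. A gene was called when its adjusted p in limma was under 0.05 (Benjamini-Hochberg over 18404 genes), and every adjusted p printed here is of that kind. Where a group's mean lay under 5.208, the 30th percentile of the genes' mean levels, the signal is described as dim and the difference is given with no fold.

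The arrays of each group were close to each other, with Pearson's r across all probe sets between 0.9954 and 0.9981 in the arrays labelled shLATS1+2 and between 0.9963 and 0.9975 in the shNT control arrays. The first principal component of the 18 arrays, with 47.3% of the variance, placed the arrays labelled shLATS1+2 at 14.99, 14.5 and 9.832 and the shNT control arrays at -18.08, -23.01 and -22.83. The shLATS1B arrays and the shNT arrays with both cDNAs lay on the shLATS1+2 side, between 16.32 and 22.7. Replicate 3 labelled shLATS1+2 stood apart on the second component, at -17.8, against -2.511 and -4.81 for the other two. Replicate 1 of shNT with ESR1 cDNA also stood apart from its group there, at 2.552 against -20.93 and -22.89. An alternative that was not planned left out both of these arrays. The labels name no batch, so a batch that followed the division on the first component and the hairpin cannot be told apart. The labels also do not say that replicates came from separate cultures, so each p-value reflects the spread among these arrays alone, which may be technical.

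Markers fixed for 3 cell classes were read in the same arrays. Of 9 mammary epithelial markers 7 were measured, none of them dim, and their summed level was 75.3 to 76.3 in the arrays labelled shLATS1+2 and 75.9 to 77.3 in the shNT control arrays. Of 14 measured leukocyte and endothelial markers, 9 were dim over the 18 arrays, among them PTPRC, the pan-leukocyte antigen, at 4.40, 4.44 and 4.44 labelled shLATS1+2 and 4.44, 4.51 and 4.48 in shNT. The summed level of that list was 81.3 to 81.9 labelled shLATS1+2 against 78.4 to 78.7 in shNT, and CD14, PECAM1 and CD68 rose, by 1.70, 0.85 and 0.71 on the log2 scale (PECAM1 by 0.4889 as the mean of its probe sets). Of 9 fibroblast markers 5 were dim and DCN and FAP fell, and the summed level was 45.7 to 46.0 labelled shLATS1+2 against 48.3 to 50.2 in shNT. The part of other cells in these differences was not tested. In bulk RNA, fewer cells of a type and less RNA per cell cannot be told apart.

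LATS1 RNA was low in the arrays labelled shLATS1+2, and LATS2 RNA was not. LATS1, read by its only probe set 8130116, had log2 levels of 7.67, 7.76 and 7.85 in the arrays labelled shLATS1+2, against 8.96, 8.80 and 8.81 in the shNT control arrays. The groups did not overlap, with the highest array labelled shLATS1+2 about 1 log2 unit under the lowest shNT control array. LATS1 fell by 1.10 ± 0.078 (SE) on the log2 scale, which is 2.14-fold, with an adjusted p of 1.8e-08. In the shLATS1B arrays LATS1 stood at 7.81, 7.61 and 7.57, and the direct difference of the arrays labelled shLATS1+2 from shLATS1B was 0.10 ± 0.078 (adjusted p = 0.60).

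LATS2, read by its only probe set 7970498, had 7.84, 7.90 and 7.72 in the arrays labelled shLATS1+2, against 7.84, 7.63 and 7.72 in the shNT control arrays. The groups overlapped, and 1 array of each group stood at 7.84. Its difference was 0.09 ± 0.063 with an adjusted p of 0.37, so the label's second target was not lower by this probe set. The group is therefore called the arrays labelled shLATS1+2 throughout. Where in the LATS2 transcript the probes lie was not used here, and LATS2 protein was not measured.

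RNA of the co-activators that LATS kinases act on was not called different from shNT. YAP1 had 10.86, 10.85 and 10.73 labelled shLATS1+2 and 10.88, 10.82 and 10.83 in shNT (difference -0.03 ± 0.075, adjusted p = 0.83). WWTR1 had 9.85, 9.85 and 9.71 labelled shLATS1+2 and 9.73, 9.57 and 9.42 in shNT, with 1 shNT array inside the other range and a difference of 0.23 ± 0.089 (adjusted p = 0.072). WWTR1 was called higher under 4 alternatives, by 0.2492 after quantile normalization (adjusted p = 0.0356), by 0.3075 with array weights (0.00201), by 0.3088 without shNT replicate 1 (0.0238) and by 0.2764 without both arrays that stand apart (0.00884). ESR1, the gene of estrogen receptor alpha, differed: its brighter probe set 8122843 read 6.35, 6.46 and 6.39 labelled shLATS1+2 against 5.65, 5.55 and 5.37 in shNT, a rise of 0.88 ± 0.081 (1.84-fold, adjusted p = 4.0e-07). The second ESR1 probe set, 8122840, read 5.05, 4.98 and 4.88 labelled shLATS1+2 and 4.99, 5.05 and 5.10 in shNT, both dim, and was not called.

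**Figure D1:**
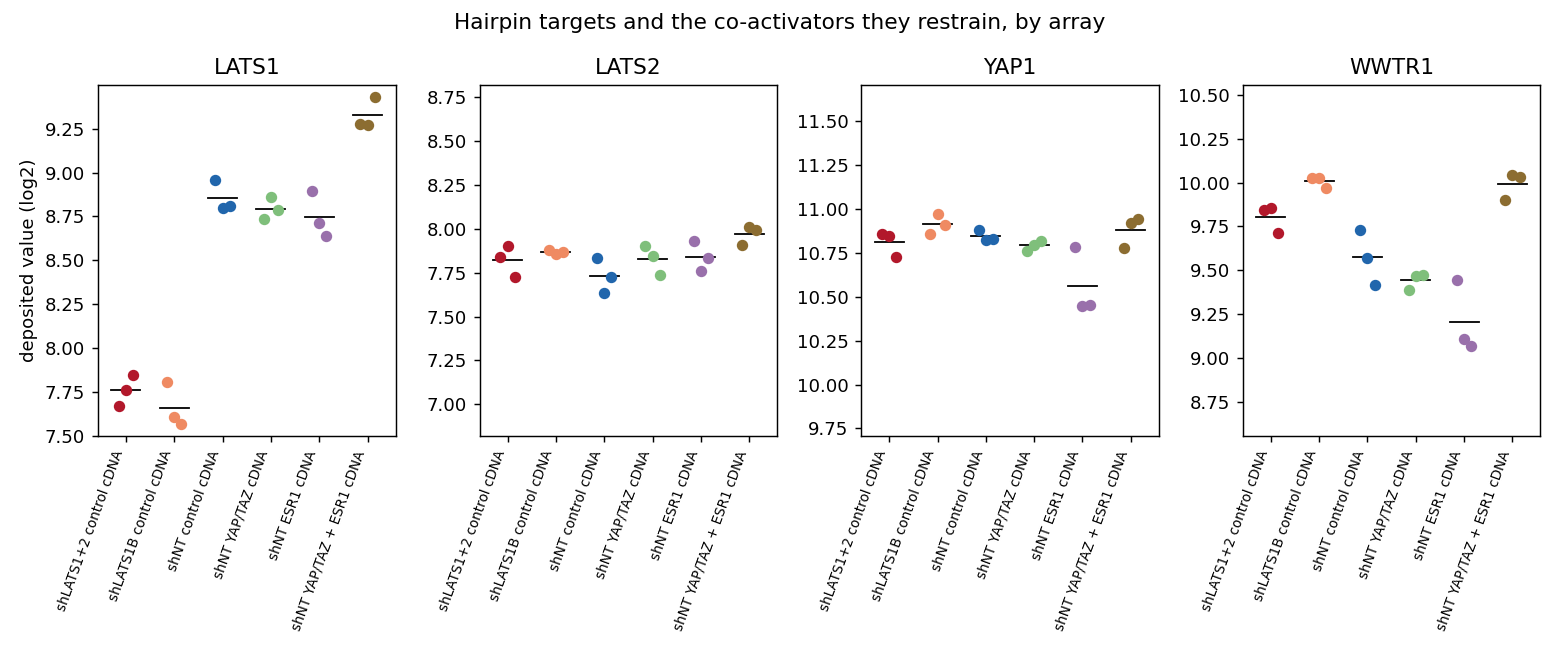
Log2 level (vertical axis) of LATS1, LATS2, YAP1 and WWTR1 in each of the 18 arrays, by group along the horizontal axis, with bars at group means. LATS1 sits between 7.67 and 7.85 labelled shLATS1+2 and between 8.80 and 8.96 in shNT with control cDNA, while LATS2 overlaps between these groups.

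Across all genes 4564 of 18404 were called, or 24.8%, with 2174 higher (11.8%) and 2390 lower (13.0%). At least a 1.5-fold difference was met by 940 called genes, of which 527 were higher and 413 lower. A 2-fold difference was met by 206 higher and 87 lower genes, and a 4-fold difference by 35 higher and 15 lower. The arrays of the 2 groups did not overlap for 16.2% of genes on the higher side and 18.5% on the lower side. When each array was centred on its median, 37.7% of 4438 calls were higher, against 47.6% of the calls on the deposited scale, so the split between higher and lower calls depends on the scaling. Each list below is read against the 11.8% and 13.0% of all genes.

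**Figure D2:**
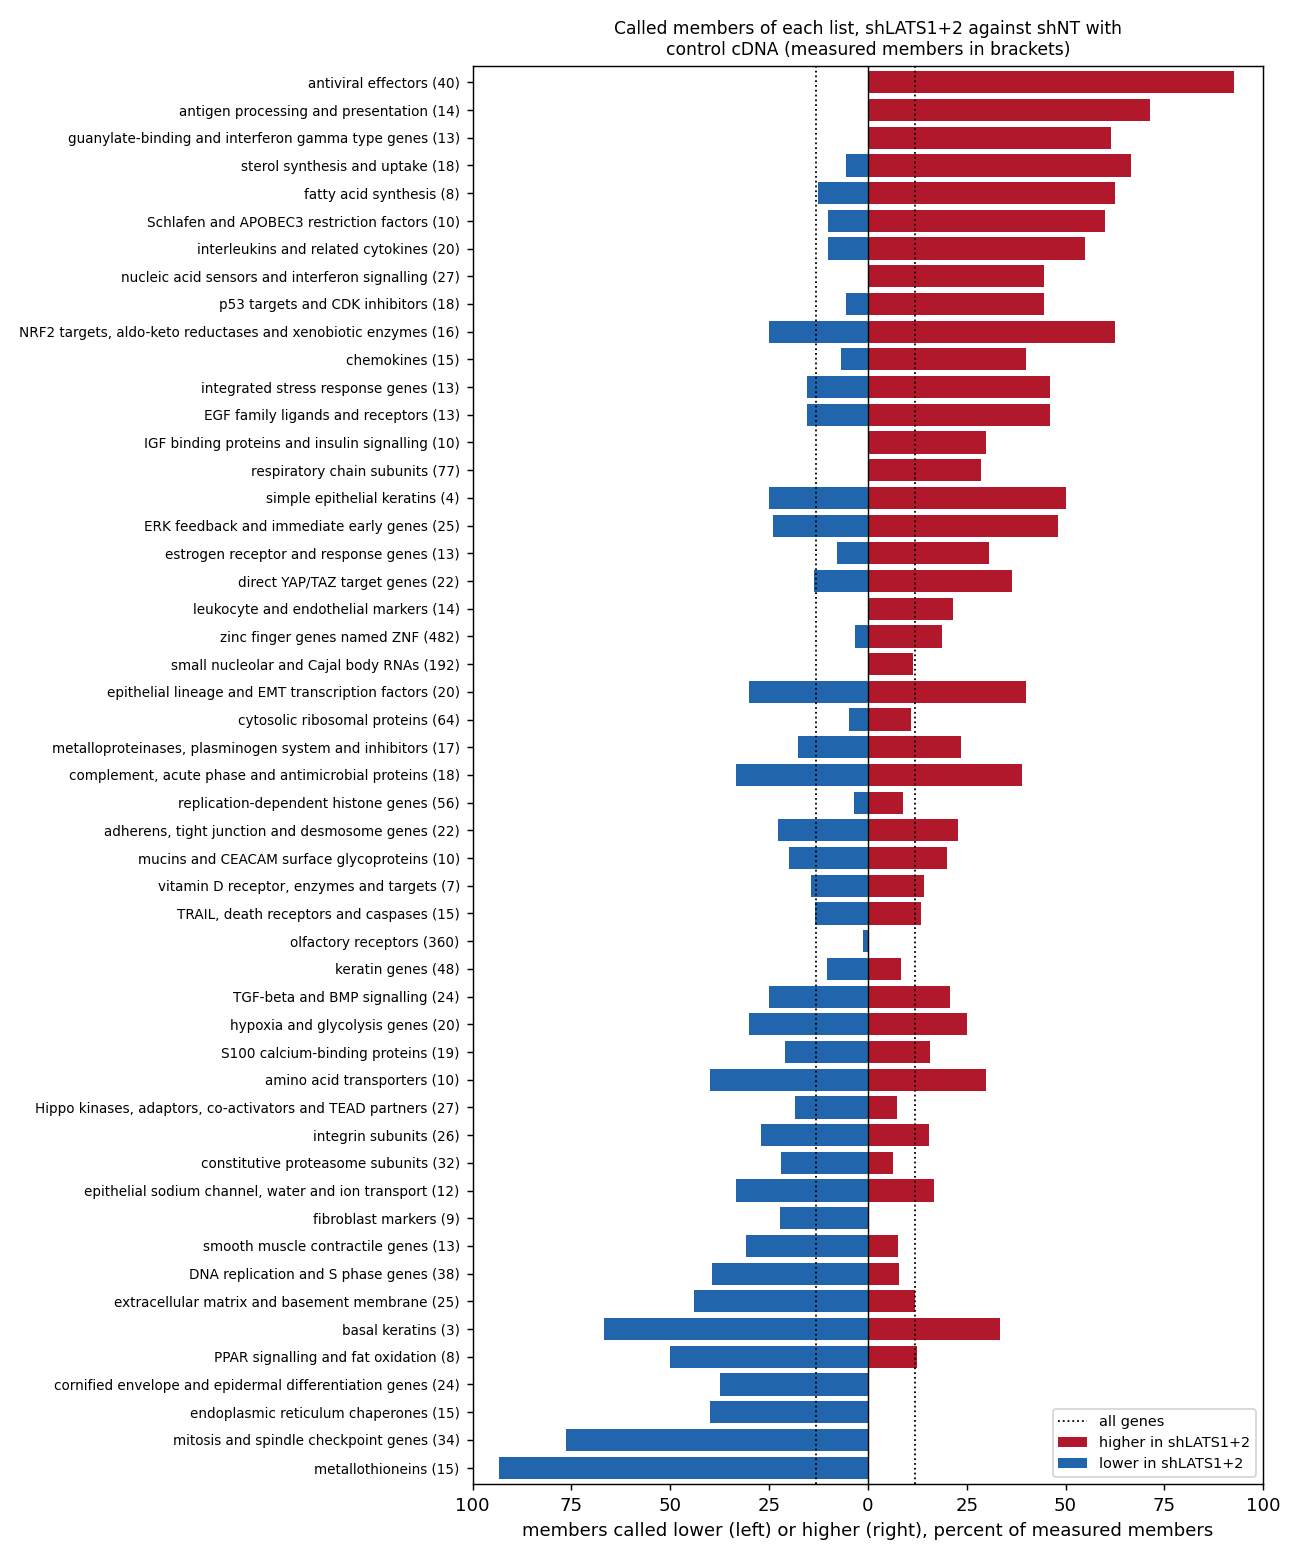
Percent of the measured members of each list that were called higher (to the right) or lower (to the left) in the arrays labelled shLATS1+2 against shNT, 1 bar pair per list, with dotted lines at the 11.8% and 13.0% of all genes. The antiviral effectors stand at the higher end with 37 of 40 members, and the mitosis list (26 of 34) and the metallothioneins (14 of 15) at the lower end.

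Of 27 measured Hippo pathway components, 2 were higher and 5 lower, which at 25.9% called is near the 24.8% of all genes. The median difference was -0.0757. The angiomotin AMOTL2, which binds YAP and is also a YAP target, read 7.11, 7.15 and 7.11 labelled shLATS1+2 against 6.56, 6.40 and 6.31 in shNT (1.63-fold higher, adjusted p = 2.7e-07). TEAD2, a DNA-binding partner of YAP, rose by 0.34 ± 0.057 (adjusted p = 0.00024), and TEAD4, of the same family, fell by 0.31 ± 0.060 (adjusted p = 0.00082). Both TEAD differences were small but without overlap of the arrays. VGLL3, a TEAD cofactor, read 7.74, 7.97 and 7.59 labelled shLATS1+2 against 8.69, 8.70 and 8.40 in shNT (1.77-fold lower, adjusted p = 1.3e-05). TAOK3, of a kinase family that acts on the MST kinases, fell by 0.37 and was not called without shLATS1+2 replicate 3 (adjusted p = 0.0686). The list's counts rest in part on single arrays, with 6 higher members without shNT replicate 1 and 3 lower members without shLATS1+2 replicate 3.

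The direct YAP/TAZ target genes moved in both directions. Of 22 measured targets, 8 were higher and 3 lower, with a median difference of 0.0649. CCN1, a secreted matricellular protein, read 8.49, 8.47 and 8.63 labelled shLATS1+2 against 7.49, 7.58 and 7.84 in shNT (1.86-fold higher, adjusted p = 8.6e-07). The most used marker of YAP activity, CCN2, read 8.25, 8.32 and 8.30 labelled shLATS1+2 and 8.23, 8.19 and 8.33 in shNT, with overlapping arrays (adjusted p = 0.75). ANKRD1, a nuclear ankyrin repeat protein, was dim in both groups, with a difference of -0.06 ± 0.072 (adjusted p = 0.63). The RNA-binding protein gene RBMS3 rose by 0.80 ± 0.057, the LIM protein gene AJUBA by 0.68 ± 0.085 and the growth factor gene TGFB2 by 0.65 ± 0.093, each with no overlap of the arrays. NT5E, the surface enzyme CD73 that makes adenosine, read 9.29, 9.42 and 9.27 labelled shLATS1+2 against 10.41, 10.53 and 10.46 in shNT (2.20-fold lower, adjusted p = 5.4e-11). NT5E had the largest absolute change of the called targets, and its direction was opposite to that of CCN1. The list's mean level was 8.22 labelled shLATS1+2, 8.26 in shLATS1B and 8.08 in the shNT control arrays. It was 8.29, 8.31 and 8.30 in shNT with YAP/TAZ, ESR1 and both cDNAs. Of the 11 called targets only NT5E, NUAK2 and RBMS3 lay beyond all 12 shNT arrays.

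The antiviral effectors rose almost as a whole. Of 40 measured members 37 were higher and none lower, with a median difference of 1.49 on the log2 scale, and 26 differed at least 2-fold. Cells make these proteins after type I interferon binds its receptor and the STAT and IRF9 complex enters the nucleus. IFIT1, which binds viral RNA caps, read 10.35, 10.55 and 10.84 labelled shLATS1+2 against 5.14, 6.17 and 5.61 in shNT. Its lowest array labelled shLATS1+2 was over 4 log2 units above the highest shNT control array, and the rise of 4.94 ± 0.19 (adjusted p = 1.4e-11) was the largest of all genes. OAS2, a synthetase that activates RNA decay, read 10.37, 10.47 and 10.32 labelled shLATS1+2 against 6.54, 6.95 and 6.41 in shNT (13.5-fold higher). RSAD2, or viperin, read 9.06, 9.17 and 9.29 labelled shLATS1+2 against 5.41, 5.38 and 5.54 in shNT (13.3-fold higher, adjusted p = 6.1e-14). IFITM1, a membrane protein that blocks virus entry and has near-identical relatives that its probes may also read, was bright in both groups, at 12.47, 12.50 and 12.52 labelled shLATS1+2 against 9.74, 9.73 and 9.67 in shNT (6.88-fold higher). OASL and IFIT2, relatives of the OAS and IFIT proteins, each rose 9.30-fold. MX1, among the best known effectors, had a dim probe set at 5.17, 5.31 and 5.21 labelled shLATS1+2 and 5.10, 5.24 and 5.24 in shNT, and was not called (adjusted p = 0.72).

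Promoters are shown for those of the 15 largest rises whose window holds a short element that many effector genes carry. Of the genes shown, CXCL10 and TNFSF10 belong to lists other than the effectors. The interferon-stimulated response element, searched as GAAA, any 2 bases and GAAA on both strands, was present in the 250 bases before the first listed start of 20 of the 33 measured effectors with a promoter entry (60.6%). It was present in 839 of 27305 promoters of that length (3.07%) and in 366 of 14230 promoters of measured genes (2.57%). In the lines below, from RefSeq GRCh38.p14 and written 5′ to 3′ on the gene's strand, capitals mark the matches. IFIT1 (chr10:89392373-89392622, plus strand) and IFIT3 (chr10:89327747-89327996, plus strand) hold 2 matches each. CXCL10 (chr4:76023498-76023747, minus strand), TNFSF10 (chr3:172523431-172523680, minus strand) and IFITM1 (chr11:313790-314039, plus strand) hold 1 each. The windows of RSAD2, AQP3, TNFAIP2, CPA4 and SAMD9L, which also rank among the largest rises, hold no match to these letters. For OAS2, OLR1, CYP24A1, OASL and IFIT2, the rest of the 15, no window was available to search.
IFIT1: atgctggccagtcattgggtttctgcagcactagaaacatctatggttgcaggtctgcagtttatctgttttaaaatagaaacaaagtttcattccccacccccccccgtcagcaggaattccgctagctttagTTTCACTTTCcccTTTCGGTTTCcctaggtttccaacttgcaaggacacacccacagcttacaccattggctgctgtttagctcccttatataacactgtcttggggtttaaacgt
IFIT3: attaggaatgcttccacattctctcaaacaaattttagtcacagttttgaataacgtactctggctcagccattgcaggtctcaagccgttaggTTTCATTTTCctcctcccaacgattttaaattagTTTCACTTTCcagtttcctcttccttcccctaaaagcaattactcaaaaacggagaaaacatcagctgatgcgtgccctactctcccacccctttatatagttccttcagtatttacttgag
CXCL10: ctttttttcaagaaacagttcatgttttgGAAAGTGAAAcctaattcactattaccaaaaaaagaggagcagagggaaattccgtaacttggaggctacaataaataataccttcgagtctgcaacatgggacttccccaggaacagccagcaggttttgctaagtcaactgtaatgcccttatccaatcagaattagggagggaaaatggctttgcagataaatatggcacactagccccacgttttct
TNFSF10: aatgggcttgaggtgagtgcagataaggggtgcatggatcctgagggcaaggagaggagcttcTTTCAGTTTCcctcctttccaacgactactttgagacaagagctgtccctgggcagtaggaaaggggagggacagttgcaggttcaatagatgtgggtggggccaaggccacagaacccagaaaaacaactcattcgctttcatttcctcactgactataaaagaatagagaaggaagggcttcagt
IFITM1: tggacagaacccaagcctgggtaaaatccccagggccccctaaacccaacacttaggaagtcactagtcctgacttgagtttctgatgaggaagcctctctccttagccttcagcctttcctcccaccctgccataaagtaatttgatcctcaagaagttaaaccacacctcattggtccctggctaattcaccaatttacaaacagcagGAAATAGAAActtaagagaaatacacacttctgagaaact

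The same element was present in 3 of 19 promoters of the sensor and signalling list (15.8%), in 6 of 12 of the antigen presentation list (50%) and in 0 of 29 of the mitosis list. A match is a run of letters and does not show that a factor was bound.

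Of 27 sensor and signalling genes 12 were higher and none lower, with a median difference of 0.143. RIGI, a sensor of viral RNA, read 10.79, 10.91 and 10.83 labelled shLATS1+2 against 8.58, 8.88 and 8.43 in shNT (4.64-fold higher). IFIH1, which senses long double-stranded RNA, rose 3.50-fold, and IRF9, the DNA-binding subunit of the interferon-activated complex, 3.80-fold. IRF1, a transcription factor, rose 3.40-fold, USP18, which dampens interferon receptor signalling, 2.42-fold and IRF7, which drives interferon genes, 1.70-fold. In each of these the 3 arrays labelled shLATS1+2 lay above the 3 shNT control arrays.

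Antigen processing genes rose in 10 of 14 measured cases, with none lower. PSMB9, a subunit of the immunoproteasome, read 10.09, 10.07 and 10.20 labelled shLATS1+2 against 8.32, 8.49 and 8.48 in shNT (3.23-fold higher, adjusted p = 2.0e-12). B2M, the light chain of class I molecules, rose 1.90-fold, TAP1, the peptide transporter, 1.84-fold and ERAP1, which trims peptides, 1.73-fold. Of the 32 subunits of the constitutive proteasome 2 were higher and 7 lower. Without shLATS1+2 replicate 3 no constitutive subunit was higher and 2 were lower, and without shNT replicate 1 the counts were 0 and 3. The higher count was also 0 without shLATS1+2 replicate 2 or shNT replicate 2, and 1 without shLATS1+2 replicate 1.

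Among interferon gamma type genes 8 of 13 were higher and none lower. CXCL10, a chemokine that attracts T cells, read 9.42, 9.61 and 10.05 labelled shLATS1+2 against 5.50, 6.08 and 5.87 in shNT (14.7-fold higher, adjusted p = 3.1e-10). CXCL11, a ligand of the same receptor, rose 5.99-fold, ICAM1, the ligand of leukocyte integrins, 2.23-fold and CD274, the checkpoint ligand PD-L1, 1.81-fold. The rise of IDO1, a tryptophan-degrading enzyme, was small and dim (0.23, adjusted p = 0.041), and its call was lost without shLATS1+2 replicates 2 or 3 or any single shNT array.

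Of 15 death ligand, receptor and caspase genes 2 were higher and 2 lower, or 1 lower without shLATS1+2 replicates 1 or 2 or shNT replicates 1 or 3. TNFSF10, the ligand TRAIL, read 9.96, 10.10 and 10.60 labelled shLATS1+2 against 6.54, 6.90 and 7.05 in shNT (10.5-fold higher). CASP8, the initiator caspase, rose by 0.24, and BCL2L1, an inhibitor of cell death, fell by 0.22. FAS, a death receptor, differed by 0.23 ± 0.12 with overlapping arrays (adjusted p = 0.20).

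Restriction factors rose in 6 of 10 cases and fell in 1. SAMHD1, which breaks down nucleotides, rose 2.66-fold and APOBEC3F, a cytidine deaminase, 2.41-fold. SLFN13, a tRNA-cleaving Schlafen protein, went the other way from its relative SLFN5. It read 6.98, 6.95 and 6.75 labelled shLATS1+2 against 7.70, 7.69 and 7.62 in shNT (1.72-fold lower), while SLFN5 rose 1.46-fold.

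Chemokines and cytokines changed member by member. Of 15 chemokines 6 were higher, and CCL20 was lower, a call lost without shLATS1+2 replicate 1 or shNT replicate 3. CCL5 read 8.33, 8.23 and 8.08 labelled shLATS1+2 against 5.55, 5.70 and 5.79 in shNT (5.79-fold higher), and the neutrophil attractant CXCL1 rose 2.46-fold. CXCL8, another neutrophil attractant, had overlapping arrays at 9.98, 10.19 and 10.86 labelled shLATS1+2 and 9.06, 9.80 and 10.03 in shNT (adjusted p = 0.063). Of 20 interleukins and related cytokines 11 were higher and 2 lower. CSF1, the macrophage growth factor, rose 2.99-fold and IL1B, a secreted cytokine of inflammation, 1.69-fold. IL6 stood at 6.42, 6.63 and 6.82 labelled shLATS1+2 against dim levels of 5.13, 5.13 and 5.29 in shNT. CSF3, the granulocyte growth factor, fell, with 9.08, 9.14 and 9.39 labelled shLATS1+2 against 10.19, 10.07 and 10.32 in shNT (1.98-fold lower).

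Complement and acute phase genes split, with 7 of 18 higher and 6 lower. CFB, of the alternative pathway, rose 6.13-fold, LCN2, which binds iron carriers of bacteria, 3.96-fold, and C1S and C1R, proteases of the classical pathway, 3.27-fold and 2.77-fold. The rise of CFB was 2.615 on the log2 scale by its brightest probe set and 1.679 as the mean of its probe sets. SERPINA3, an acute phase protease inhibitor, read 7.88, 7.59 and 7.59 labelled shLATS1+2 against 10.17, 10.21 and 10.33 in shNT (5.86-fold lower, adjusted p = 4.2e-10). PI3, an elastase inhibitor, fell 2.65-fold. The central component C3 was bright and close in both groups, with a difference of 0.13 ± 0.075 (adjusted p = 0.26).

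The interferon lists were not low in all shNT arrays, all of which carried the same hairpin. The mean level of the 40 effectors was 9.47 ± 0.029 labelled shLATS1+2, 9.37 ± 0.053 in shLATS1B and 7.80 ± 0.090 in the shNT control arrays (SD, n = 3 each). In shNT arrays with YAP/TAZ cDNA it was 9.22 ± 0.038, with ESR1 cDNA 9.56 ± 0.040 and with both 9.95 ± 0.017. Of these groups the shNT control arrays alone stood low, and the arrays labelled shLATS1+2 lay inside the range of the other shNT arrays. IFIT1, for example, averaged 9.65, 10.68 and 11.18 in those 3 shNT groups with cDNA, against 5.64 in the shNT control arrays. Of the 37 called effectors, 12 called sensors, 10 called antigen genes and 8 called interferon gamma type genes, 0 lay beyond all 12 shNT arrays.

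Genes of sterol synthesis and uptake rose, with 12 of 18 higher and 1 lower. INSIG1, which holds the sterol sensor in the endoplasmic reticulum, read 9.92, 9.88 and 9.96 labelled shLATS1+2 against 8.34, 8.42 and 8.34 in shNT (2.93-fold higher, adjusted p = 5.1e-13). HMGCS1, an early enzyme of the mevalonate route, rose 1.87-fold and MVK, mevalonate kinase, 1.74-fold. SREBF1, the master regulator of lipid synthesis, rose 1.65-fold. The arrays of INSIG1 were tightly grouped, and the gene was also above the 9 shNT arrays with cDNA. Of the 13 called members only INSIG1 and FDPS lay beyond all 12 shNT arrays. The list's mean level was 9.84 labelled shLATS1+2 and 9.43 in the shNT control arrays. It was 9.26, 9.28 and 9.90 in shNT with YAP/TAZ, ESR1 and both cDNAs. The list's single lower member was not called without shLATS1+2 replicate 2 or without shNT replicates 1 or 2.

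In fatty acid synthesis 5 of 8 genes were higher and 1 lower. ACSS2, which makes acetyl-CoA from acetate, rose 2.12-fold, the desaturase genes FADS2 and SCD 2.07-fold and 1.51-fold. FASN, the synthase itself, rose by 0.54 ± 0.16 (adjusted p = 0.022) and lost its call without shLATS1+2 replicates 1 or 2 or shNT replicates 2 or 3. ACLY, which makes cytosolic acetyl-CoA, fell by 0.36 (adjusted p = 0.045), and its call was lost without shLATS1+2 replicates 2 or 3 or any single shNT array.

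PPAR signalling and fat oxidation genes went the other way, with 1 of 8 higher and 4 lower. ANGPTL4, an inhibitor of lipoprotein lipase, read 8.51, 8.61 and 8.69 labelled shLATS1+2 against 11.03, 10.92 and 11.05 in shNT (5.27-fold lower, adjusted p = 6.7e-15). CPT1A, the gate of fatty acids into mitochondria, fell 2.05-fold and PDK4, which blocks pyruvate entry, 1.35-fold. PPARG, a receptor of this family, was the higher member, at 7.32, 7.16 and 7.04 labelled shLATS1+2 against 6.74, 6.73 and 6.73 in shNT.

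Epithelial ion and water transport held a fall and a rise among the largest of all genes. SCNN1G, the gamma subunit of the epithelial sodium channel, read 5.33, 5.49 and 5.55 labelled shLATS1+2 against 8.80, 8.65 and 8.70 in shNT. It fell by 3.26 on the log2 scale, the largest fall of all genes (9.58-fold, adjusted p = 3.7e-13). SCNN1B, the beta subunit, fell 1.67-fold and SGK1, a kinase that raises channel activity, 1.85-fold. SCNN1A, the alpha subunit, overlapped between groups, with a difference of 0.16 ± 0.083 (adjusted p = 0.20). AQP3, a channel for water and glycerol, rose, with 9.85, 9.63 and 9.78 labelled shLATS1+2 against 6.73, 6.53 and 6.53 in shNT (8.93-fold higher, adjusted p = 2.5e-14).

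CYP24A1, the enzyme that inactivates vitamin D hormone, read 8.28, 8.37 and 8.51 labelled shLATS1+2 against 4.81, 5.07 and 5.00 in shNT, where it was dim. The vitamin D receptor gene VDR differed by 0.09 ± 0.11 (adjusted p = 0.66), and CYP27B1, which makes the hormone, fell by 0.46 ± 0.052 (adjusted p = 3.9e-06). Of the 7 vitamin D genes 1 was higher and 1 lower, or 2 higher without shLATS1+2 replicate 1. The other shNT groups placed CYP24A1 at 5.04 with YAP/TAZ cDNA, 4.93 with ESR1 cDNA and 9.13 with both. OLR1, a scavenger receptor for oxidised lipoprotein, averaged 8.63 labelled shLATS1+2, 5.73, 6.54 and 8.84 in those groups and a dim 5.09 in the shNT control arrays.

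Further large falls lay outside the lists. INSC, an adaptor of spindle orientation, read 5.30, 5.28 and 5.11 labelled shLATS1+2 against 8.25, 8.41 and 8.19 in shNT (8.31-fold lower). PNLIPRP3, a lipase family gene, was dim at 5.03, 4.95 and 5.42 labelled shLATS1+2 against 7.91, 8.23 and 8.37 in shNT. FLRT3, an adhesion protein that is also a partner of FGF receptors, fell 4.76-fold, the sulfate transporter gene SLC26A2 4.09-fold and MRGPRX3, a G protein-coupled receptor gene, 5.32-fold. As the mean of its probe sets MRGPRX3 differed by -1.546 on the log2 scale, against -2.41 by the brightest. For each of these 5 genes the arrays of both groups did not overlap.

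**Figure D3:**
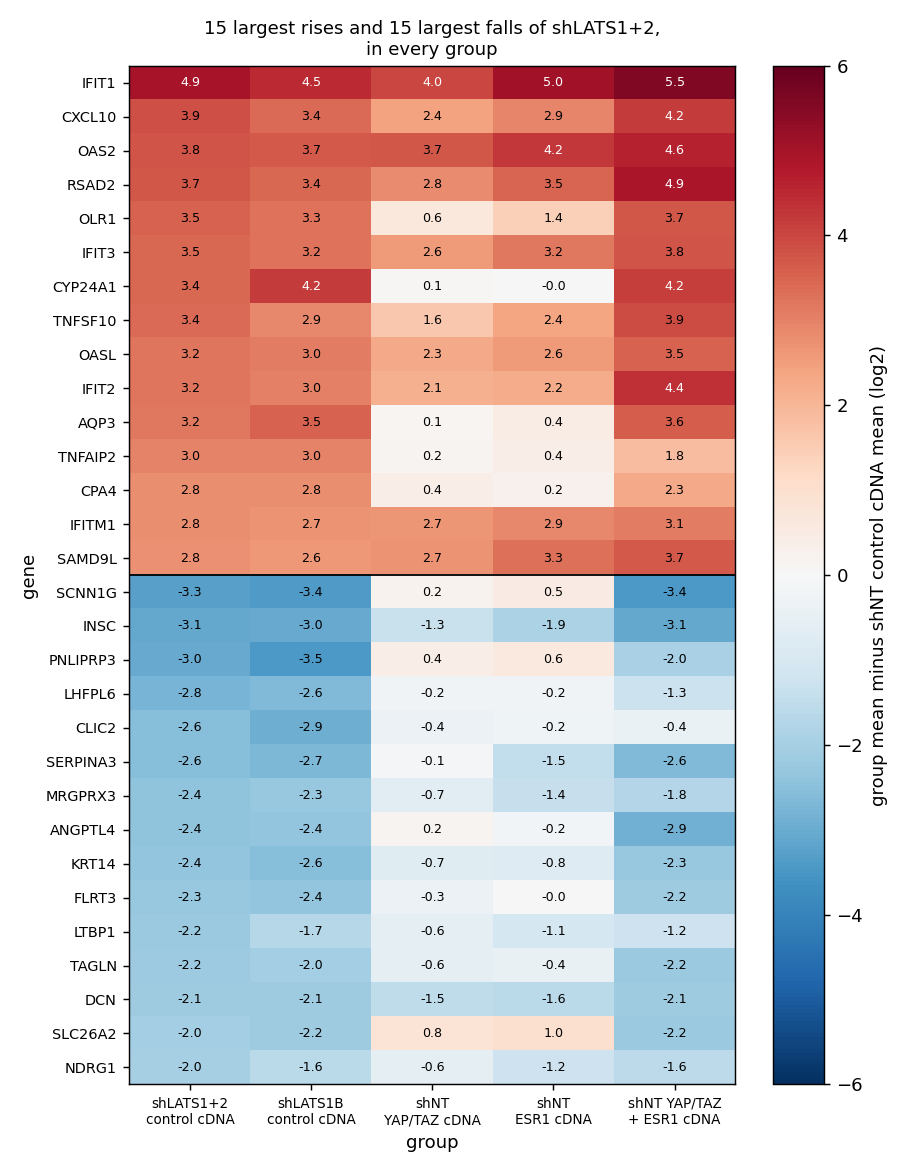
Heat map of the 15 largest rises and 15 largest falls labelled shLATS1+2 against shNT (1 row each), coloured by the group mean minus the shNT control mean on the log2 scale, with 1 column per group. IFIT1 (4.94) and SCNN1G (-3.26) are the extremes in the shLATS1+2 column, and many rows have a like colour in the shLATS1B column and in the column of shNT with both cDNAs.

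The keratin genes that were called went in both directions. KRT14, the keratin of basal cells, read 8.03, 8.07 and 8.09 labelled shLATS1+2 against 10.55, 10.51 and 10.23 in shNT (5.15-fold lower, adjusted p = 1.5e-09), and its partner KRT5 fell 1.33-fold. KRT15, also basal, rose 2.10-fold, so the basal keratins did not move as 1 block. None of these 3 lay beyond all 12 shNT arrays. Their mean level was 9.92 labelled shLATS1+2 and 10.49 in the shNT control arrays. It was 10.03, 9.87 and 10.12 in shNT with YAP/TAZ, ESR1 and both cDNAs. The simple epithelial pair KRT8 and KRT18 rose, KRT8 with 11.83 to 12.05 labelled shLATS1+2 against 10.99 to 11.23 in shNT (1.87-fold) and KRT18 1.40-fold. KRT7, of the simple type too, fell 1.25-fold. Over all 48 keratin genes, 4 were higher and 5 lower. At 18.8% called the family was under the 24.8% of all genes, and 21 of the 48 were dim. The lower count was 9 when arrays were centred or quantile normalized.

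Among epithelial lineage factors 8 of 20 were higher and 6 lower. ELF3, an epithelial ETS factor, read 8.90, 8.97 and 8.76 labelled shLATS1+2 against 6.16, 6.60 and 6.44 in shNT (5.57-fold higher, adjusted p = 9.1e-11). EHF, of the same family, rose 1.79-fold, FOXA1, a pioneer factor of luminal cells, 1.49-fold and TFAP2C, a luminal AP-2 factor, 1.68-fold. SNAI2, a repressor that marks basal and mesenchymal states, read 10.40, 10.60 and 10.58 labelled shLATS1+2 against 11.95, 12.01 and 11.98 in shNT (2.74-fold lower, adjusted p = 1.3e-11). GRHL3, a factor of epidermal barrier formation, fell 1.62-fold.

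Smooth muscle contractile genes were lower in 4 of 13 cases and higher in 1. TAGLN, an actin-binding protein, read 6.43, 6.12 and 6.45 labelled shLATS1+2 against 8.38, 8.67 and 8.46 in shNT (4.51-fold lower), SMTN, or smoothelin, fell 2.86-fold and MYL9, a myosin light chain, 1.49-fold. The actin ACTA2 overlapped between groups and differed by 0.34 ± 0.12 (adjusted p = 0.059). The higher count was 2 without shLATS1+2 replicate 3 or without shNT replicate 1.

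Matrix genes leaned lower, with 11 of 25 lower and 3 higher. FN1, fibronectin, read 6.69, 6.71 and 6.76 labelled shLATS1+2 against 8.80, 8.38 and 8.52 in shNT (3.59-fold lower, adjusted p = 2.2e-10). THBS1, thrombospondin, fell 2.13-fold, TGFBI 1.52-fold and LAMB3, a laminin chain of the epithelial basement membrane, 1.47-fold. LTBP1, which stores latent TGF-beta in the matrix, read 8.14, 8.07 and 7.86 labelled shLATS1+2 against 10.37, 10.19 and 10.16 in shNT (4.66-fold lower). DCN, decorin, was dim at 4.61, 4.50 and 4.53 labelled shLATS1+2 against 6.02, 6.77 and 7.21 in shNT, where the arrays spread widely. SPARC, a collagen-binding protein, was a higher member (1.74-fold).

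Integrins, the receptors for this matrix, were lower in 7 of 26 cases and higher in 4. ITGA6, the laminin receptor subunit, read 10.89, 10.90 and 10.65 labelled shLATS1+2 against 11.82, 11.77 and 11.72 in shNT (1.94-fold lower), its partner ITGB4 fell 1.30-fold, ITGA5, of the fibronectin receptor, 1.42-fold and ITGAV 1.33-fold. ITGB8 rose 1.50-fold. The higher count was 2 without any single array other than shNT replicates 1 and 2.

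Of 17 proteases and inhibitors 4 were higher and 3 lower. Both plasminogen activators rose, PLAT with 10.86, 10.81 and 10.78 labelled shLATS1+2 against 9.54, 9.62 and 9.57 in shNT (2.36-fold) and PLAU 2.03-fold. Gelatinase MMP9 overlapped between groups, with a difference of 0.00 ± 0.080.

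Junction genes split evenly, with 5 of 22 higher and 5 lower. CLDN1, a tight junction claudin, read 11.04, 11.14 and 11.08 labelled shLATS1+2 against 9.36, 9.44 and 9.37 in shNT (3.25-fold higher, adjusted p = 7.3e-14). TJP3, a tight junction scaffold, rose 2.42-fold and the adhesion molecule EPCAM 1.64-fold. DSG3, the basal desmosome cadherin, fell 1.97-fold and CDH2, N-cadherin, 1.49-fold, while E-cadherin, CDH1, overlapped between groups (adjusted p = 0.31). The lower count was 3 without shLATS1+2 replicate 3 or without shNT replicate 1.

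Cornified envelope genes fell or did not pass, with 9 of 24 lower and none higher, and 10 of the 24 were dim. SPRR1B, a cross-linked envelope protein, read 7.11, 6.88 and 6.95 labelled shLATS1+2 against 8.85, 8.49 and 8.73 in shNT (3.27-fold lower), and TGM1, the cross-linking enzyme, fell 2.19-fold. The lower count was 5 without shLATS1+2 replicate 1 and 4 without shLATS1+2 replicate 3 or shNT replicate 1. IVL, involucrin, was dim in both groups, and its call (adjusted p = 0.043) was lost without any single array.

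Of 13 EGF family members 6 were higher and 2 lower, and the receptor EGFR overlapped between groups with a difference of -0.04 ± 0.086. LRIG1, which promotes receptor breakdown, read 8.75, 8.62 and 8.45 labelled shLATS1+2 against 7.05, 6.73 and 6.66 in shNT (3.46-fold higher, adjusted p = 9.5e-10). The ligand HBEGF rose 1.99-fold, with BTC and TGFA at 1.34-fold each and EREG at 1.25-fold, and the ligand EPGN fell 1.68-fold.

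ERK feedback and immediate early genes were changed in 18 of 25 cases, 12 higher and 6 lower. DUSP4, a nuclear ERK phosphatase, rose 1.91-fold and DUSP6, its cytoplasmic counterpart, 1.26-fold, while DUSP7 fell 1.83-fold. IER3 rose 1.79-fold, EGR1, an early zinc finger factor, fell 1.75-fold and FOSL1, an AP-1 subunit, 1.46-fold. FOS itself overlapped, at 8.54, 8.57 and 8.55 labelled shLATS1+2 and 8.54, 8.55 and 8.49 in shNT.

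In TGF-beta and BMP signalling 5 of 24 genes were higher and 6 lower. ID2, a BMP-induced inhibitor of helix-loop-helix factors, read 5.22, 5.51 and 5.67 labelled shLATS1+2 against 7.52, 7.45 and 6.75 in shNT (3.42-fold lower, adjusted p = 6.0e-06). BAMBI, a decoy receptor, fell 2.35-fold, the receptor TGFBR1 1.66-fold and the ligand TGFB1 1.53-fold. TGFBR3, a co-receptor, rose 1.85-fold. ID1 and SMAD7, both early targets, overlapped between groups (adjusted p = 0.32 and 0.44).

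Of 13 measured estrogen receptor and response genes 4 were higher, among them the receptor gene ESR1 itself, and 1 was lower. RERG, a small GTPase, rose 2.17-fold, NRIP1, a nuclear receptor co-repressor, 1.87-fold and IGFBP4 2.05-fold, while CA12, a carbonic anhydrase, fell 1.88-fold. The classical target GREB1 was dim in both groups (4.86, 4.81 and 4.92 labelled shLATS1+2 and 4.93, 4.97 and 5.03 in shNT) and was not called. TFF1, also classical, was not called either (5.43, 5.34 and 5.29 labelled shLATS1+2 and 5.39, 5.21 and 5.45 in shNT). The lower count was 2 without shLATS1+2 replicate 2.

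Mitosis genes fell together by small amounts. Of 34 measured genes 26 were lower and none higher, with a median difference of -0.383. CENPE, a kinetochore motor, read 6.35, 6.24 and 6.23 labelled shLATS1+2 against 7.58, 7.51 and 7.24 in shNT (2.25-fold lower, adjusted p = 4.8e-06). BUB1B, a spindle checkpoint kinase, fell 1.99-fold, ASPM, a spindle pole protein, 1.95-fold and MKI67, the proliferation antigen, 1.52-fold. The kinase CDK1 overlapped between groups, with a difference of 0.02 ± 0.15 (adjusted p = 0.95). The list's mean level was 9.70 ± 0.009 labelled shLATS1+2 and 10.11 ± 0.027 in shNT control arrays (SD, n = 3 each), and 9.76, 9.63 and 9.18 in shNT with YAP/TAZ, ESR1 and both cDNAs.

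Of 38 replication genes 15 were lower and 3 higher. MCM6, a helicase subunit, fell 1.58-fold, CDC6, which loads it, 1.45-fold and CLSPN, a checkpoint adaptor, 1.80-fold. PCNA, the polymerase clamp, overlapped (difference -0.00 ± 0.092). The higher count was 1 without any single array.

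Of 18 p53 targets and CDK inhibitors 8 were higher and 1 lower, or 5 higher when arrays were centred. GDF15, a secreted stress factor, read 11.67, 11.63 and 11.55 labelled shLATS1+2 against 9.61, 9.60 and 9.65 in shNT (3.99-fold higher, adjusted p = 6.7e-15). CDKN1B, the inhibitor p27, rose 1.50-fold, MDM2, which degrades p53, 1.22-fold and CDKN1A, the inhibitor p21, 1.19-fold (not called after centring, adjusted p = 0.0542). TP53I3, an oxidoreductase, fell 1.42-fold, and the lower count was 2 without shLATS1+2 replicate 3.

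In stress programmes, integrated stress response genes were higher in 6 of 13 cases and lower in 2 (1 without shNT replicates 2 or 3), and endoplasmic reticulum chaperones lower in 6 of 15 and higher in none. DDIT3, the factor CHOP, read 6.43, 6.40 and 6.78 labelled shLATS1+2 against 5.51, 5.71 and 5.55 in shNT (1.93-fold higher), while ATF4, which acts above it, overlapped between groups (adjusted p = 0.13). CANX, calnexin, fell 1.24-fold and HYOU1, a chaperone of the same compartment, 1.30-fold.

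NRF2 targets and xenobiotic enzymes were higher in 10 of 16 cases and lower in 4. CYP1B1, an oxidase of aromatic compounds, read 10.42, 10.31 and 10.22 labelled shLATS1+2 against 8.41, 8.18 and 7.81 in shNT (4.55-fold higher), and CYP1A1, of the same family, rose 2.36-fold. GPX2, a glutathione peroxidase, rose 2.18-fold and NQO1, a quinone reductase, 1.20-fold, while GCLC, the first enzyme of glutathione synthesis, fell 1.59-fold and HMOX1, heme oxygenase, overlapped (adjusted p = 0.54). AKR1C3, an aldo-keto reductase with near-identical relatives that its probes may also read, rose 1.68-fold.

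Hypoxia and glycolysis genes split, with 5 of 20 higher and 6 lower. NDRG1, a hypoxia-induced protein, read 8.60, 8.39 and 8.17 labelled shLATS1+2 against 10.53, 10.37 and 10.28 in shNT (4.02-fold lower), and SLC2A1, the glucose transporter, rose 1.64-fold. Of 10 amino acid transporters 3 were higher and 4 lower. SLC7A2, a carrier of arginine, fell 1.91-fold and SLC7A5, the large neutral amino acid carrier, rose 1.29-fold.

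The metallothioneins, small proteins that bind zinc and copper, fell as a family. Of 15 measured members, pseudogenes included, 14 were lower, with a median difference of -0.401. MT1X read 10.70, 10.57 and 10.78 labelled shLATS1+2 against 11.75, 11.56 and 11.63 in shNT (1.95-fold lower, adjusted p = 3.6e-09), MT1F fell 1.86-fold and MT1E 1.42-fold. These genes are near-identical and lie together, so probes may be shared and the members are not independent. The family's mean level was 8.60 ± 0.010 labelled shLATS1+2, 8.63 ± 0.016 in shLATS1B and 9.04 ± 0.033 in the shNT control arrays (SD, n = 3 each), and 9.01, 8.94 and 8.46 in shNT with YAP/TAZ, ESR1 and both cDNAs. The MT1X promoter is shown as that of the member with the largest change. The core of the metal response element, searched as TGCACNC and TGCGCNC on both strands, was present in 5 of 5 metallothionein promoters with an entry, and in 4230 of 14230 promoters of measured genes (29.7%). The window is from RefSeq GRCh38.p14, chr16:56682220-56682469 on the plus strand, and capitals mark its 4 matches.
MT1X: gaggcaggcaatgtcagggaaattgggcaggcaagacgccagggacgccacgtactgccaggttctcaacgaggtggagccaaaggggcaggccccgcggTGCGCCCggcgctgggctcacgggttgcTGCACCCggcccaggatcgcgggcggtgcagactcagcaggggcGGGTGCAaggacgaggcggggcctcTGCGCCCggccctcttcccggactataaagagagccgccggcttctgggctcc

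Larger gene families were counted in the same way. Of 77 respiratory chain subunits 22 were higher and none lower, with a median of 0.191, and COX7C rose by 0.54. The calls of the subunits NDUFA2 and NDUFA1 were lost without shLATS1+2 replicate 3 (adjusted p = 0.102 and 0.0712) or shNT replicate 1 (0.0956 and 0.069). The list's mean level was 9.65 labelled shLATS1+2 and 9.47 in the shNT control arrays. It was 9.53, 9.64 and 9.42 in shNT with YAP/TAZ, ESR1 and both cDNAs. Small nucleolar and Cajal body RNAs were higher in 22 of 192 cases and lower in none, close to the background of 11.8%, with 12 higher and 2 lower without shLATS1+2 replicate 3 and 10 higher and 2 lower without shNT replicate 1. Zinc finger genes were higher in 91 of 482 cases and lower in 16, with 10 lower without shLATS1+2 replicate 2. Olfactory receptors were called in 5 of 360 cases, against 24.8% of all genes, and 348 of them were dim.

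The 12 shNT arrays allow each gene to be set against every non-targeting array of the series. Of the 4564 called genes, 1001 lay with all 3 arrays labelled shLATS1+2 beyond all 12 shNT arrays, 487 above (2.65% of genes) and 514 below (2.79%). Of the 293 called genes with at least a 2-fold change, 92 did so. Against single shNT groups the called genes lay beyond YAP/TAZ cDNA arrays in 3514 cases, beyond ESR1 cDNA arrays in 2450 and beyond the arrays with both cDNAs in 1531. None of 26 called mitosis genes, 18 called replication genes or 14 called metallothioneins lay beyond all 12. LATS1 was among the genes farthest below, with its highest array labelled shLATS1+2 at 7.85 against a lowest shNT array of 8.64.

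The genes farthest outside the 12 shNT arrays were chosen after their values were seen. Farthest above was CALB2, the calcium-binding protein calretinin, with 7.65, 7.74 and 7.45 labelled shLATS1+2, against 5.70, 5.63 and 5.53 in the shNT control arrays and 6.48 in the highest of the 12. TNFAIP2, an inflammation-induced gene that was also a large rise, read 10.41, 10.31 and 10.30 labelled shLATS1+2 against 7.55, 7.37 and 7.22 in shNT, with the highest of the 12 at 9.36. ARRB1, the receptor adaptor beta-arrestin, rose 2.05-fold, CASP14, a caspase of epidermal cells, was dim in shNT, and EFNA1, an ephrin ligand, rose 2.31-fold. PTBP2, a splicing regulator, rose 2.19-fold, SEMA7A, a membrane-bound semaphorin, 1.74-fold and CST6, a cystatin protease inhibitor, 1.59-fold. RHOF, a GTPase of filopodia, read 9.83, 9.86 and 9.86 labelled shLATS1+2 against 8.38, 8.30 and 8.18 in shNT (2.95-fold higher). NGFR, the neurotrophin receptor, rose 1.98-fold.

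Farthest below was CLIC2, a chloride channel family protein, with 5.22, 5.07 and 5.36 labelled shLATS1+2 against 7.57, 8.01 and 7.78 in the shNT control arrays and 7.30 in the lowest of the 12 (5.93-fold lower). LHFPL6, a membrane protein, read 6.57, 6.37 and 6.81 labelled shLATS1+2 against 9.29, 9.47 and 9.34 in shNT, with a lowest of the 12 at 7.98. SARAF, which limits calcium entry through store-operated channels, fell 2.45-fold, CAMSAP2, which binds microtubule minus ends, 2.60-fold and SPTBN1, a spectrin, 2.07-fold. HIPK2, a kinase that acts on p53, fell 2.01-fold, ALDH1L2, a mitochondrial folate enzyme, 2.55-fold and HCCS, which attaches heme to cytochromes, 1.88-fold. Matrix and adhesion members stood here too, with FN1, LTBP1 and DSG3 below every shNT array, as were the integrins ITGA5, ITGA6 and ITGB4. The shLATS1B arrays averaged 7.88 for CALB2, 4.86 for CLIC2 and 8.12 for SARAF. Set directly against shLATS1B, NGFR (-0.43, adjusted p = 0.033) and LTBP1 (-0.49, adjusted p = 0.047) were lower labelled shLATS1+2, and the other genes of this kind named here were not called.

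**Figure D4:**
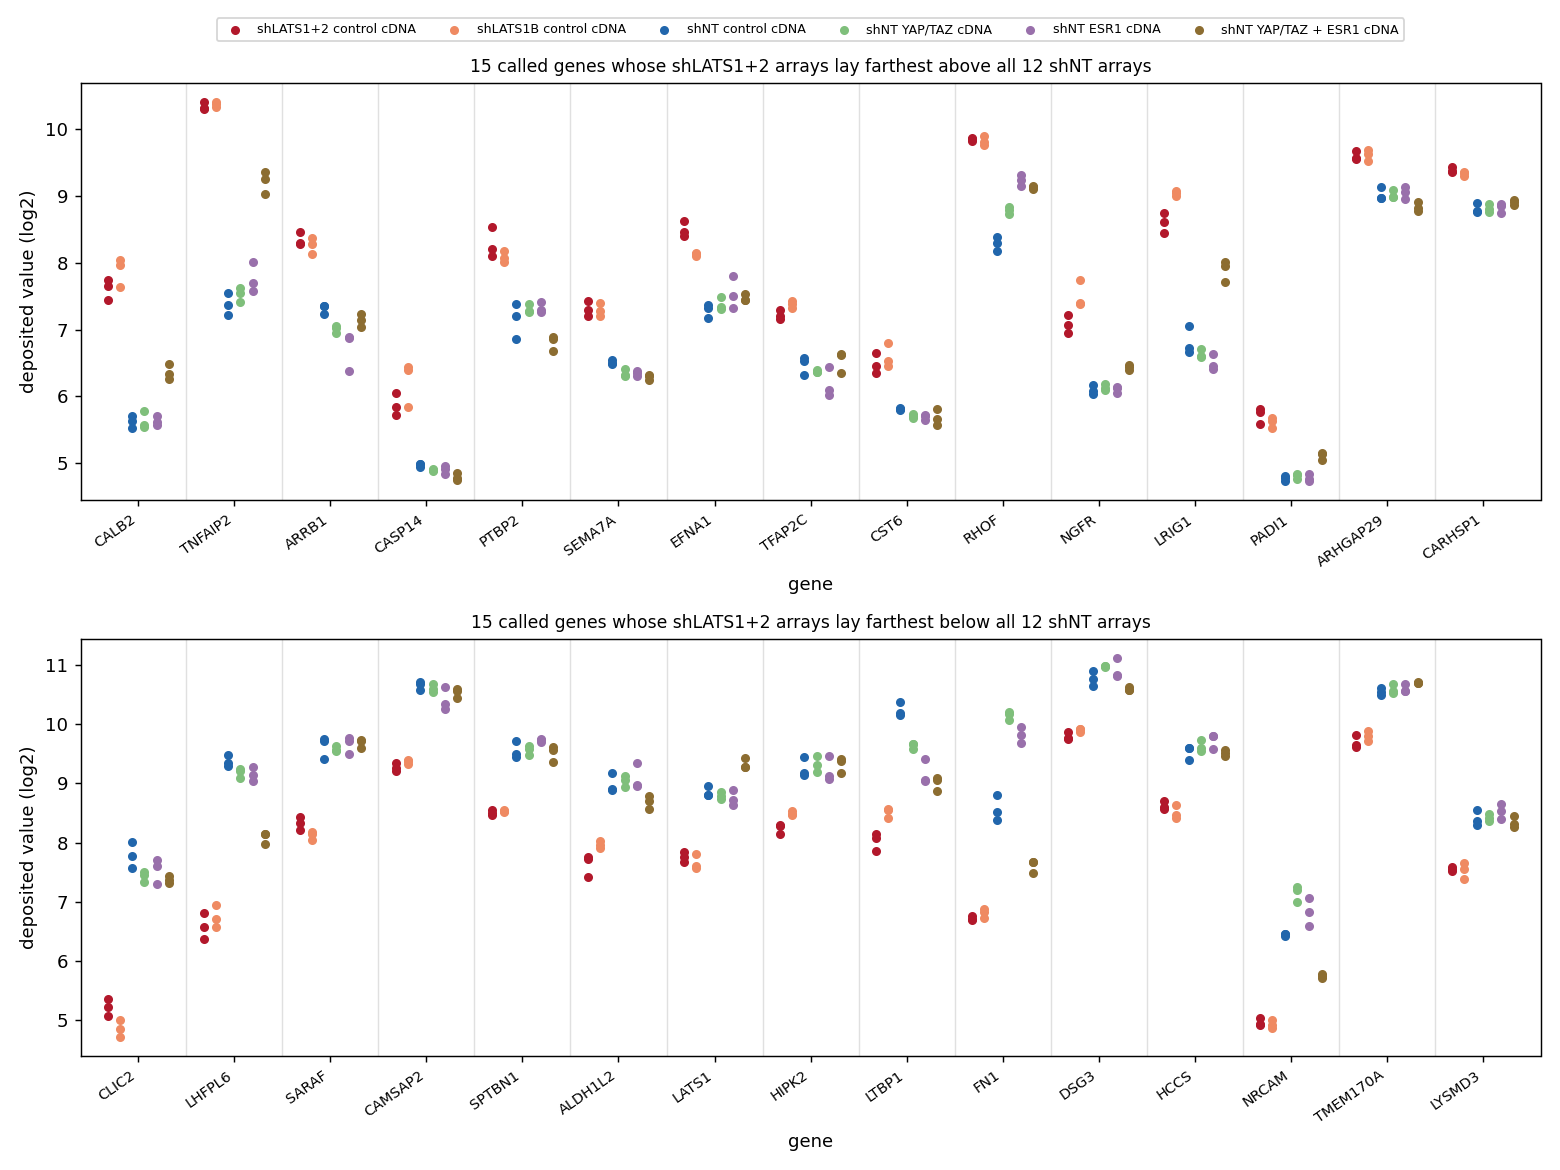
Log2 level of the 15 genes farthest above and the 15 farthest below all 12 shNT arrays, in each of the 18 arrays, with genes along the horizontal axis and 1 colour per group. Points labelled shLATS1+2 lie outside every shNT point for each gene, as the choice of genes fixes, and CALB2 (lowest 7.45 against a highest shNT array of 6.48) and CLIC2 (highest 5.36 against a lowest shNT array of 7.30) stand farthest out.

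The arrays labelled shLATS1+2 were set directly against the shLATS1B arrays. Of 18404 genes 59 were called (0.321%), 26 higher and 33 lower, against 248 with array weights, and 2136 had an unadjusted p under 0.05. Of the 59, 20 differed at least 1.5-fold. Without shLATS1+2 replicate 3 there were 37 calls, without shLATS1B replicate 2 there were 33 and without shLATS1B replicate 3 there were 35. None of the 27 Hippo components and none of the 22 YAP/TAZ targets was called in this comparison. A p that misses the threshold does not show that the hairpins act alike.

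The genes with the largest differences are described by where the shNT control arrays lay. For some, shNT lay near the arrays labelled shLATS1+2 and shLATS1B stood off. PXDN, a peroxidase of the matrix, read 6.85, 6.73 and 6.55 labelled shLATS1+2 against 8.10, 8.27 and 8.31 in shLATS1B (-1.52 ± 0.076, 2.87-fold lower, adjusted p = 1.8e-08), with 7.04, 6.91 and 6.85 in shNT. Its difference from shNT was -0.23 (adjusted p = 0.037), a call lost without shLATS1+2 replicates 2 or 3 or shNT replicates 1 or 2. PCSK5, a protease that processes hormones, read 6.95, 7.01 and 6.90 labelled shLATS1+2 against 6.21, 5.98 and 6.23 in shLATS1B (1.76-fold higher, adjusted p = 4.6e-05), with 6.93, 6.96 and 6.94 in shNT. TLR4, the receptor of bacterial lipopolysaccharide, was 1.80-fold higher and TNIP3, an inhibitor of NF-kB, 1.72-fold higher than in shLATS1B, and both overlapped with shNT.

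For others, the levels of both hairpin groups lay on the same side of shNT by unequal amounts. CLTRN, or collectrin, read 7.74, 7.99 and 8.30 labelled shLATS1+2 against 6.72, 6.57 and 6.69 in shLATS1B (2.55-fold higher, adjusted p = 0.0074), with 5.61, 5.81 and 5.81 in shNT. SRGN, a proteoglycan of secretory granules, was 1.79-fold higher than in shLATS1B. CYP24A1 and the amino acid carrier SLC6A14 were lower than in shLATS1B, by 0.75 and 0.95 on the log2 scale, and dim in shNT. CSF3 was lowest labelled shLATS1+2, at 9.08, 9.14 and 9.39, against 9.81, 9.70 and 9.64 in shLATS1B and 10.19, 10.07 and 10.32 in shNT.

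Other genes had all 3 arrays labelled shLATS1+2 beyond both other groups. SLFN13 read 6.98, 6.95 and 6.75 labelled shLATS1+2 against 8.11, 8.07 and 8.13 in shLATS1B (2.31-fold lower, adjusted p = 4.5e-06) and 7.70, 7.69 and 7.62 in shNT. GPX2 read 7.24, 7.08 and 6.87 labelled shLATS1+2 against 6.24, 6.17 and 5.97 in shLATS1B (1.91-fold higher, adjusted p = 0.0015) and 5.98, 6.02 and 5.81 in shNT. AKR1B10, an aldo-keto reductase, was 2.02-fold higher than in shLATS1B, though its 3 arrays spread from 6.66 to 7.43. NRG4, a ligand of the EGF family, was 1.99-fold higher than in shLATS1B but lay nearer to shNT, and its difference from shNT (0.35, adjusted p = 0.012) lost its call without shLATS1+2 replicate 1 (adjusted p = 0.0533). Of the 16 NRF2 targets and xenobiotic enzymes 6 were called higher in this comparison, more than in any other list here. Across all genes 0.321% were called in either direction. The list's mean level was 9.51 ± 0.080 labelled shLATS1+2, 9.23 ± 0.023 in shLATS1B and 9.13 ± 0.060 in the shNT control arrays (SD, n = 3 each). It was 9.02, 8.99 and 10.05 in shNT with YAP/TAZ, ESR1 and both cDNAs.

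**Figure D5:**
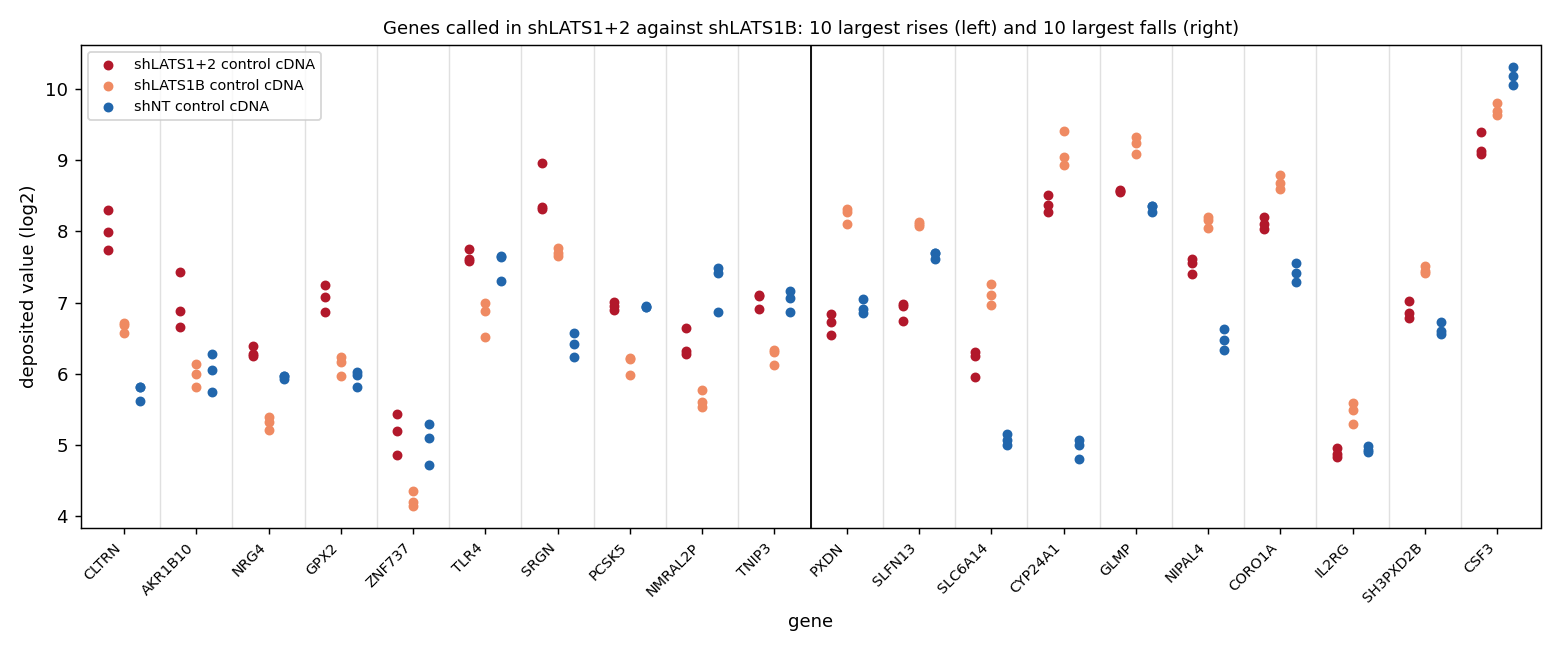
Log2 level of the 10 largest rises and 10 largest falls labelled shLATS1+2 against shLATS1B, in each array of the arrays labelled shLATS1+2, shLATS1B and shNT with control cDNA, with genes along the horizontal axis. PXDN lies at 6.55 to 6.85 labelled shLATS1+2 and at 8.10 to 8.31 in shLATS1B, and CLTRN at 7.74 to 8.30 labelled shLATS1+2 and at 6.57 to 6.72 in shLATS1B.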

How the data were processed

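RNA of MCF10A cells was measured on arrays, 3 per group. The authors deposited log2 signal values per probe set, and the submitters' processing notes name affy. How the arrays were background-corrected and normalized is not given in the sources used here. Of 32321 probe sets, 19158 had 1 gene symbol, 1388 several and 11775 none. For 637 genes with several probe sets, the one with the highest mean over all arrays was kept, which left 18404 genes. All 18 arrays in 6 groups were fitted in limma 3.58.1 (R 4.3.3), with Benjamini-Hochberg adjustment over all genes and a call at an adjusted p under 0.05, after the steps were tested on simulated data. The number of arrays limits the precision.

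The genes named are LATS1, LATS2, YAP1, WWTR1 and ESR1, the 15 largest rises and 15 largest falls without overlap, up to 6 called members per list with its first 3 and its defining members, and the 10 largest rises and falls against shLATS1B. Genes named for lying beyond all shNT arrays were chosen after their values were seen. Members and lists were chosen with earlier results of these data known. Same-numbered arrays of the 2 groups deviated together for replicates 1 and 3 (r of 0.478 and 0.408) but not for replicate 2 (-0.347). Differently numbered arrays had r from -0.618 to 0.425. The numbers were not used as pairs, except in the replicate block. Alternatives were centring, quantile normalization, other probe sets, array weights, fewer arrays and a replicate block.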

Additional observations from a re-analysis of the deposited data

Results flagged for a closer look

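In the direct comparison of the arrays labelled shLATS1+2 with the shLATS1B arrays, the difference passed the threshold for 59 genes in limma. The shLATS1B arrays were read as levels beside the shNT control arrays and were not tested against them. The log2 differences, shLATS1+2 minus shLATS1B, were 1.35 for CLTRN, 1.01 for AKR1B10, 1.00 for NRG4, 0.93 for GPX2, 0.93 for ZNF737, 0.85 for TLR4, 0.84 for SRGN, 0.81 for PCSK5, 0.79 for NMRAL2P and 0.78 for TNIP3. On the lower side they were -1.52 for PXDN, -1.21 for SLFN13, -0.95 for SLC6A14, -0.75 for CYP24A1, -0.65 for GLMP, -0.61 for NIPAL4, -0.58 for CORO1A, -0.58 for IL2RG, -0.57 for SH3PXD2B and -0.51 for CSF3.

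Probe sets with no single gene symbol were outside the comparisons. Of 13163 such probe sets 1182 (8.98%) were called in the arrays labelled shLATS1+2 against shNT, 775 higher and 407 lower.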

How the results depend on the processing

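The alternatives were read for the named genes called against shNT and for LATS2, YAP1 and WWTR1, which were not called. Only LATS2, YAP1 and WWTR1 could therefore gain a call, and other named genes that were not called are outside these counts. Of these values, 4684 kept their direction and side of the threshold, 211 lost the call, 4 gained it (all WWTR1) and 2 changed sign. Both sign changes were YAP1, at 0.00911 without shLATS1+2 replicate 3 (adjusted p = 0.965) and at the same value without both arrays that stand apart (adjusted p = 0.937); the cause was not tested. Leaving out 1 array at a time placed YAP1 between -0.05816 and 0.00911. With each array left out in turn, 3805 to 4078 genes were called against shNT (1871 to 1943 higher, 1897 to 2179 lower), LATS1 fell by 1.046 to 1.14 on the log2 scale and LATS2 differed by 0.04153 to 0.143. Requiring a 1.5-fold change left 940 genes, 527 higher and 413 lower, since fewer genes can pass. Against shLATS1B the 59 calls (26 higher, 33 lower) became 248 with array weights (113 higher, 135 lower) and 20 at 1.5-fold (14 higher, 6 lower), and without both arrays that stand apart 21 were lower. Leaving out 1 array gave 33 to 54 calls, 16 to 24 higher and 16 to 30 lower. With the replicate block, 4370 genes were called against shNT, 4317 of them shared with the fit without it, and 55 against shLATS1B. The share of higher calls was 37.7% after centring and 42.4% after quantile normalization, against 47.6% on the deposited scale. Centring and quantile normalization changed the scale of all genes together. Dim probe sets limit what can be read for MX1, ANKRD1, IDO1, IVL and GREB1.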
